A study of Mus musculus with 8 samples.

Results

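The genes described here are 8 genes that store, sense or move zinc, namely Mt1, Mt2, Mtf1, Slc30a1, Slc30a10, Slc39a4, Slc39a5 and Slc39a14. They were chosen by symbol from the 22059 genes listed, all 8 were present in every sample, and all 8 were among the 17081 genes that passed a filter on low read counts. The samples were poly(A)-selected RNA from whole livers of wild-type mice, labelled FVB and named FVB/NJ (an inbred strain) in the methods, with 2 samples for each of 4 stages. The stages were embryonic day 18 (E18), postnatal day 14 (P14), P28 and adult, for which the sample names give 3 months. No genotype or treatment differed between the stages, and age was the compared variable. The methods call the samples biological duplicates, and they name males for adult liver taken at 3 months. Whether each sample was 1 liver or a pool, the sex at the other stages and the feeding state are not given in the sources used here.

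Metallothioneins such as Mt1 and Mt2 are small cysteine-rich proteins that bind zinc, copper and cadmium, and fetal and newborn liver is known for a large store of zinc bound to them. The transcription factor Mtf1 senses zinc and binds short metal response elements near the start of genes that include the metallothionein genes and Slc30a1. Transporters of the Slc39 family bring zinc into the cytosol, and those of the Slc30 family take it out of the cytosol, across the cell membrane or into vesicles. Some members carry other metals, and Slc39a14 and Slc30a10 are known for the uptake and export of manganese.

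Of the 8 genes, 6 had a promoter window in the RefSeq table of GRCm38.p6, and Slc39a4 and Slc39a14 had none. Each window ran from 250 bases before the annotated start to 30 bases after it, 280 bases in all. The windows of Mt1, Mt2 and Slc30a1 are shown because these are the genes of the set best known for control by Mtf1. Capitals mark matches to the 7 letters of the metal response element core, searched as TGCACNC or TGCGCNC on both strands. The Mt1 window lies on the plus strand at chr8:94178839-94179118, the Mt2 window on the plus strand at chr8:94172368-94172647, and the Slc30a1 window on the plus strand at chr1:191906531-191906810.
Mt1: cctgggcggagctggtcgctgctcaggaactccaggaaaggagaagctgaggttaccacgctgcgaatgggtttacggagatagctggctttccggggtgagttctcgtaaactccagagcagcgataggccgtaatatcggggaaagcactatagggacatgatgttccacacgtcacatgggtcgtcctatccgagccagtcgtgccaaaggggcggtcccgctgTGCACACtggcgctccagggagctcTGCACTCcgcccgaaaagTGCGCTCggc
Mt2: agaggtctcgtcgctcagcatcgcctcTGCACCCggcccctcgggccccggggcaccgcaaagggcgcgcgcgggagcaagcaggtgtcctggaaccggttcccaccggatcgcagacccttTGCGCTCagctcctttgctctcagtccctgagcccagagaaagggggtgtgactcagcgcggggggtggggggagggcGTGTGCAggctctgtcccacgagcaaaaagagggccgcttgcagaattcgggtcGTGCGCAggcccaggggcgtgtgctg
Slc30a1: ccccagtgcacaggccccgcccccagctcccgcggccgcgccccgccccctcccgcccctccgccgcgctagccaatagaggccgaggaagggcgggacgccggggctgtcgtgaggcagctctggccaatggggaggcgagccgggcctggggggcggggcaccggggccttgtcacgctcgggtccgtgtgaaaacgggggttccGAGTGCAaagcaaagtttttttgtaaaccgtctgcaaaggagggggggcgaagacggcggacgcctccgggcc
The Mt1 window held 3 matches, all on the strand of the gene, and the Mt2 window held 4, with 2 on each strand. The Slc30a1 window held 1 match, on the strand opposite to the gene. The Mt1 matches began at 23, -2 and -20 bases before the annotated start, where a minus sign means after it. Those of Mt2 began at 223, 128, 50 and -4, and that of Slc30a1 at 43. The counts therefore depend on where the annotated start lies. Slc30a10 had 3 matches, of which a pair overlapped on opposite strands, Slc39a5 had 1 at 1 of its annotated starts and 0 at the other, and Mtf1 had 0. Of 32817 promoter windows of the same length, 24.08% held at least 1 match, 1.731% at least 3 and 0.4053% at least 4. A match to these letters is a description of the sequence and was not tested for binding.

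Gene counts summed to 68154675 to 106055723 reads in the 8 samples. Levels are given as counts per 1000000 gene reads after TMM scaling (CPM), which adjusts for unequal RNA composition between libraries. Where genes of unequal length are compared, they are given as RPKM, the deposited reads scaled by transcript length and mapped total. A gene was called changed at an adjusted p below 0.1 in edgeR's quasi-likelihood test, with Benjamini-Hochberg adjustment over the 17081 genes, together with a change over 3-fold. The duplicates of every stage differed by more than sampling noise. Hepatocyte markers led at all stages, with summed levels of 70431 to 208639 CPM for 8 markers. Markers of blood cells were high at E18. The summed level of 10 erythroid markers was 12214 and 15709 CPM at E18 and 92 to 123 CPM later, and that of 8 neutrophil markers was 1032 to 1217 CPM at E18, 177 to 190.0 CPM at P14, and 1.44 to 5.74 CPM later. RNA of pancreas genes was present in both E18 libraries, where 14 acinar markers summed to 260.2 CPM in replicate 1 and 554 CPM in replicate 2. With the libraries scaled by size alone, the median log2 fold change of all genes shifted by -0.87 from E18 to P14 and by -0.85 from E18 to adult. This shift turned the direction of Mtf1 from E18 to P14 and to adult and that of Slc30a1 from E18 to P14.

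The 8 genes fell into 4 patterns. Mt1, Mt2 and Slc39a5 were high at E18 and fell by P14 and again by P28. Slc39a14 and Slc39a4 rose between E18 and P14. Slc30a10 was lowest at P14, and after TMM scaling its P28 and E18 samples overlapped. The stage means of Mtf1 and Slc30a1 differed by at most 1.88-fold. From E18 to P14, 5 of the 8 genes were called (2 higher, 3 lower), against 29.2% of all genes tested (13.8% higher, 15.4% lower). From P14 to P28, 3 of 8 were called, all lower, against 9.59% of all genes (3.61% higher, 5.98% lower). From P28 to adult 0 of 8 were called by edgeR, against 3% of all genes (0.767% higher, 2.24% lower), although 6 had an unadjusted p below 0.05 and 5 an adjusted p below 0.1. DESeq2 and limma also called 0 in that interval, DESeq2 with 6 at an adjusted p below 0.1. From E18 to adult, 4 of 8 were called (1 higher, 3 lower), against 40.5% of all genes (16.8% higher, 23.8% lower). With library size alone, the calls from E18 to P14 were 0 higher and 4 lower among the 8 genes, and 1266 higher and 5095 lower among all genes, in place of 2353 and 2636. From E18 to adult they were then 0 higher and 3 lower among the 8 genes, and 1653 higher and 6159 lower among all genes, in place of 2863 and 4061.

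**Figure D1:**
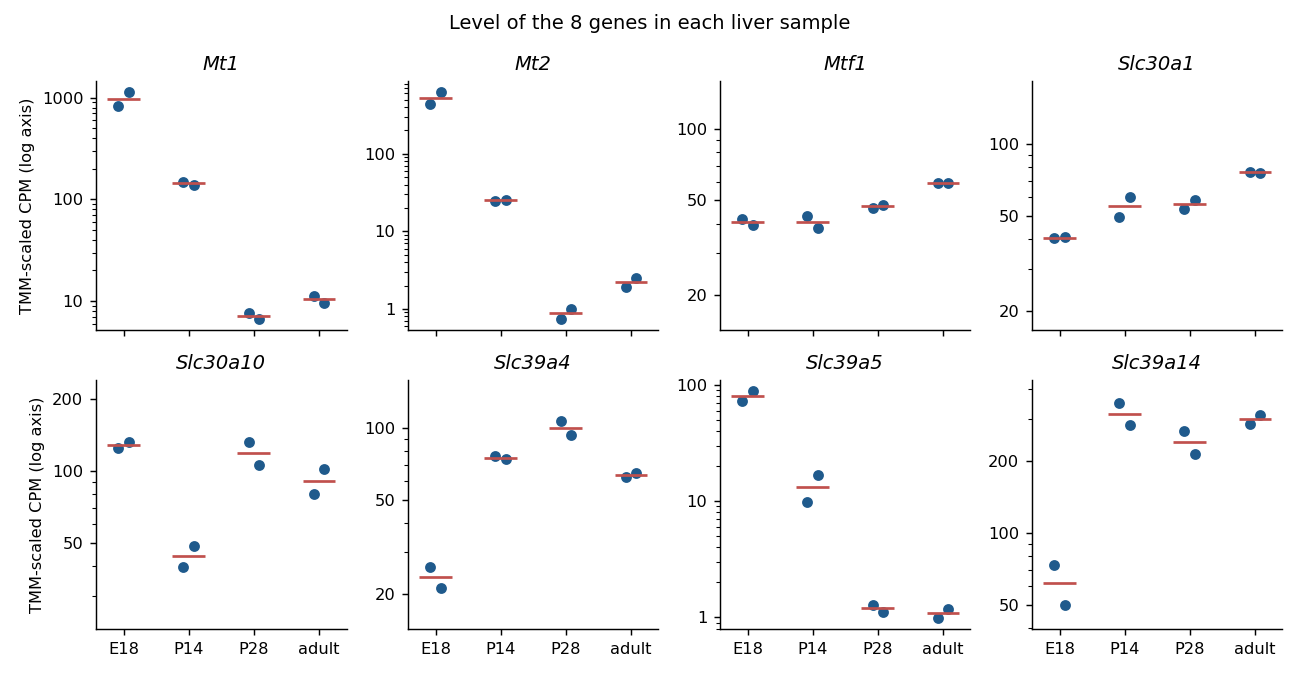
TMM-scaled CPM on a log axis against stage for each of the 8 genes, with 1 point per sample and a line at the mean of 2. Mt1, Mt2 and Slc39a5 span the widest range of the 8 genes, while all samples of Mtf1 lie between 38.4 and 59.4 CPM.

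Mt1 and Mt2 encode the metallothioneins of liver. Mt1 measured 832 and 1129 CPM at E18, 149.6 and 138 CPM at P14, 7.59 and 6.73 CPM at P28, and 11.2 and 9.64 CPM in adult. The 4 stages did not overlap, and the order was E18, P14, adult and P28. Mt1 was 6.81-fold lower at P14 than at E18 (log2 fold change -2.77 ± 0.16 SE, adjusted p = 5.2e-07). Between P14 and P28 it was a further 20.1-fold lower (-4.33 ± 0.18, adjusted p = 7.8e-07). From E18 to adult the fall was 94.0-fold (-6.55 ± 0.20, adjusted p = 6.8e-09). In whole liver, fewer cells of a type and less RNA per cell cannot be told apart.

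Mt2 measured 438 and 620.5 CPM at E18, 24.9 and 25.7 CPM at P14, 0.75 and 0.993 CPM at P28, and 1.91 and 2.49 CPM in adult. It had the same order of stages as Mt1, again with no overlap. Mt2 was 20.9-fold lower at P14 than at E18 (log2 fold change -4.39 ± 0.20 SE, adjusted p = 1.1e-07). It was 29.0-fold lower at P28 than at P14 (-4.86 ± 0.23, adjusted p = 1.6e-06) and 241-fold lower in adult than at E18 (-7.91 ± 0.24, adjusted p = 7.5e-09). The lowest values rested on 60 and 71 reads at P28, whereas the E18 values rested on 60761 and 75927 reads. Both metallothionein genes were higher in adult than at P28, but under the 3-fold threshold. The difference was 2.52-fold for Mt2 (log2 fold change 1.34 ± 0.24, adjusted p = 0.0078) and 1.46-fold for Mt1 (0.54 ± 0.16, adjusted p = 0.057).

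Per transcript length, Mt1 exceeded Mt2 in every sample. Mt1 measured 2646 ± 522 RPKM (SD, n = 2) and Mt2 1392 ± 316 RPKM at E18, where Mt1 ranked 17th and 14th and Mt2 33rd and 24th by RPKM among the genes of the samples. At P28 Mt1 ranked 4006th and 4335th, with 10.4 ± 0.74 RPKM, and Mt2 ranked 10746th and 10014th, with 1.24 ± 0.26 RPKM. The ratio of Mt1 to Mt2 in RPKM, which does not depend on scaling between libraries, was 1.95 and 1.87 in the E18 samples, 6.17 and 5.53 in those of P14, 10.4 and 6.95 in those of P28, and 6.03 and 3.98 in those of adult liver. Both E18 ratios were below all 6 postnatal ones. Together the metallothionein genes took 0.203 and 0.269% of all gene reads at E18, then 0.0151 and 0.0140% (P14), 0.000706 and 0.000662% (P28), and 0.00112 and 0.00108% (adult). The longest run of identical bases shared by the annotated Mt1 and Mt2 transcripts was 20, against reads of 100 bases. The Gm45774 annotation lies antisense to Mt2, and whether the counting used strand is not given in the sources used here.

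Both metallothionein genes were higher in E18 replicate 2 than in replicate 1, by a factor of 1.36 for Mt1 and 1.42 for Mt2. Summed markers of several cell types differed the same way between these libraries. The factor was 1.41 for Kupffer cells and macrophages, 1.32 for megakaryocytes, 1.29 for erythroid cells and 1.18 for neutrophils. It was 2.13 for acinar and 4.42 for islet cells. The other summed markers differed the opposite way, by 0.907 for hepatocytes, 0.854 for endothelial and 0.872 for stellate cells. For bile duct the factor was 0.687 and for intestine 0.770. The hepatocyte markers were mixed. Afp measured 35366.3 CPM in replicate 1 and 27508.5 CPM in replicate 2, and Hnf4a and Serpina1a were also lower in replicate 2. Alb was near equal (38314 and 38405 CPM), and Ttr, Apoa1, Tat and Cyp2e1 were higher in replicate 2. The part of these cell types in the E18 level of the metallothionein genes was not tested. Without E18 replicate 2 the log2 fold changes from E18 to adult were -6.32 for Mt1 and -7.63 for Mt2. Between P14 and P28, where the metallothionein genes fell 20.1-fold and 29.0-fold, the summed erythroid markers were 107 and 123 CPM at P14 and 106 and 108 CPM at P28. Of the 8 neutrophil markers, 7 were called lower in that interval, against 5.98% of all genes tested.

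Mt3 and Mt4, the metallothioneins of brain and stratified epithelia, were at the edge of detection. Mt3 had 41 and 28 reads at E18 and 0 to 3 in the postnatal samples, and Mt4 had 23 and 50 reads at E18 and 0 to 2 later. Both were called lower from E18 to P14 and from E18 to adult (15.4% and 23.8% of all genes tested). No fold is given at these counts. In the later intervals 0 were called by edgeR, DESeq2 or limma, with 0 at an unadjusted p below 0.05.

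Mtf1, the zinc-sensing transcription factor, measured 41.8 and 39.4 CPM at E18, 43.1 and 38.4 CPM at P14, 46.5 and 48.1 CPM at P28, and 59.2 and 59.4 CPM in adult. The P14 samples overlapped those of E18 (log2 fold change 0.00, 95% interval -0.20 to 0.20, adjusted p = 0.97). After TMM scaling the adult samples were above all others. The adult level was 1.46-fold that of E18 (0.55 ± 0.09 SE, adjusted p = 0.00036), under the 3-fold threshold, and with library size alone the change was -0.30. In RPKM, which carries no TMM factor, Mtf1 measured 8.13 and 7.47 at E18. All postnatal samples lay below these, with 6.11 and 6.32 RPKM in adult, so that the order of stages depends on the scaling. Mtf1 overlaps 1110065P20Rik on the opposite strand, which had 1426 to 2897 reads per sample against 3419 to 5805 for Mtf1.

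Slc30a1, the zinc exporter of the cell membrane, measured 40.1 and 40.6 CPM at E18, 49.6 and 59.8 CPM at P14, 53.4 and 58.2 CPM at P28, and 76.2 and 75.6 CPM in adult. After TMM scaling the E18 samples were the lowest and the adult samples the highest. P14 and P28 overlapped (log2 difference 0.03, 95% interval -0.21 to 0.26, adjusted p = 0.85). The adult level was 1.88-fold that of E18 (0.91 ± 0.10 SE, adjusted p = 3.2e-05), and with library size alone this change was 0.04. In RPKM, which carries no TMM factor, Slc30a1 measured 11.4 and 11.2 at E18 and 11.5 and 11.7 in adult. The P14 and P28 samples lay below these, at 7.71 to 9.20 RPKM, so that the place of E18 depends on the scaling. The Slc30a1 window printed above held 1 match to the metal response element core, against 3 for Mt1 and 4 for Mt2. Slc30a1 overlaps the antisense gene 1700034H15Rik, which had 250 to 692 reads per sample against 4158 to 5568 for Slc30a1.

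**Figure D2:**
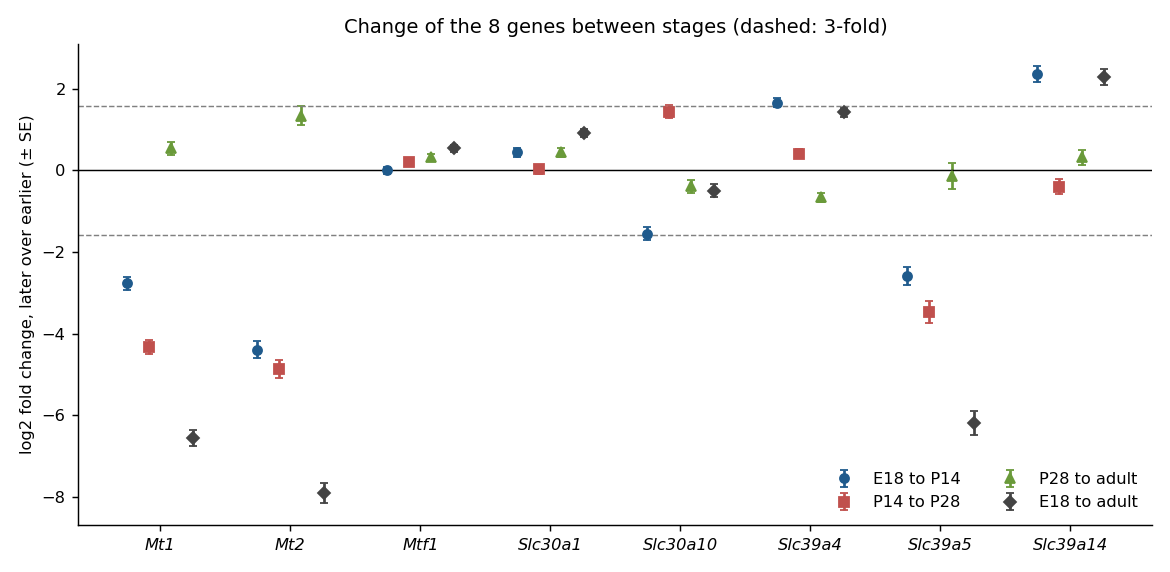
Log2 fold change, later stage over earlier, of the 8 genes in 4 comparisons, as edgeR estimates with bars of 1 SE and dashed lines at a 3-fold change. Mt1, Mt2 and Slc39a5 lie below the lower line from E18 to P14, from P14 to P28 and from E18 to adult, and Slc30a10 changes sign between the first and the second interval.

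Slc39a5, a zinc importer also known from pancreas and intestine, fell from E18 to P14 and again to P28, as the metallothionein genes did. Unlike Mt1 and Mt2, Slc39a5 had no higher mean in adult than at P28. It measured 72.0 and 87.8 CPM at E18, 9.89 and 16.8 CPM at P14, 1.29 and 1.12 CPM at P28, and 0.997 and 1.19 CPM in adult. E18 and P14 stood apart from each other and from the later stages, and P28 and adult overlapped (log2 fold change -0.14, 95% interval -0.83 to 0.56, adjusted p = 0.82). Slc39a5 was 5.99-fold lower at P14 than at E18 (-2.58 ± 0.23 SE, adjusted p = 7.3e-06). It was a further 11.1-fold lower at P28 (-3.47 ± 0.26, adjusted p = 2.1e-05) and 73.1-fold lower in adult than at E18 (-6.18 ± 0.29, adjusted p = 7.0e-08). The adult values rested on 58 and 79 reads. Ankrd52 overlaps Slc39a5 on the opposite strand and had 1830 and 2359 reads in these adult samples.

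Pancreas markers moved with Slc39a5 between E18 and P14. Of the 14 acinar markers, 12 could be tested, and 9 were called lower from E18 to P14. Of the 6 islet markers, all 6 were called lower in the same interval. Of all genes tested, 15.4% were called lower there. Cpa1, a digestive enzyme of acinar cells, had 7962 and 14208 reads at E18 and 0 to 5 later, and Ctrb1 had 9849 and 24176 at E18 and 1 to 39 later. The summed acinar level was 36.2 and 36.4 CPM at P14, 121 and 125 CPM at P28, and 109 and 123 CPM in adult, of which Cela1 made up most after P14, with 6083 to 9235 reads per sample. Between P14 and P28, where Slc39a5 differed 11.1-fold, Cpa1, Cel and Ptf1a had at most 5 reads in each sample. In the same interval Pnliprp1, a lipase-related acinar protein, went from 1000 and 908 reads to 16 and 18, and the insulin gene Ins2 from 21 and 59 reads to 0 in both. The intestine markers Vil1 and Cdx2 were also highest at E18, with 1018 and 545 reads for Vil1 and 641 and 304 for Cdx2, whereas Fabp2 of the same list was lowest at E18 (3.72 and 5.56 CPM) and highest at P14 (124 and 127 CPM). Slc39a5 was 1.22 times as high in E18 replicate 2 as in replicate 1, where the acinar markers differed by a factor of 2.13 and the islet markers by 4.42. Without E18 replicate 2 the log2 fold change of Slc39a5 was -2.43 from E18 to P14 and -6.03 from E18 to adult. The part of pancreas and intestine RNA in the course of Slc39a5 was not tested.

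Slc39a14, which carries zinc, iron and manganese into hepatocytes, measured 73.3 and 49.6 CPM at E18, 349 and 283 CPM at P14, 267 and 214 CPM at P28, and 286 and 313 CPM in adult. Both E18 samples lay below all 6 postnatal samples. Slc39a14 was 5.14-fold higher at P14 than at E18 (log2 fold change 2.36 ± 0.20 SE, adjusted p = 6.2e-06) and 4.87-fold higher in adult than at E18 (2.28 ± 0.20, adjusted p = 5.3e-06). Both calls were lost with library size alone, where the changes were 1.49 and 1.43. The postnatal stages did not pass the test against each other. The adult level differed from that of P14 by -0.08 on the log2 scale, with a 95% interval of -0.51 to 0.36. Without E18 replicate 2, the lower of the E18 samples, the change to P14 was 2.11.

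Slc39a4, the importer known for zinc uptake in the intestine, measured 25.9 and 21.4 CPM at E18, 76.1 and 73.7 CPM at P14, 107 and 93.1 CPM at P28, and 62.1 and 64.8 CPM in adult. Its stages did not overlap, and P28 was the highest. It was 3.17-fold higher at P14 than at E18 (log2 fold change 1.66 ± 0.11 SE, adjusted p = 1.5e-06). That call lay near the 3-fold threshold and was lost without E18 replicate 2 (1.53) and with library size alone (0.79). From P14 to P28 the level was 1.33-fold higher (0.41 ± 0.11, adjusted p = 0.015), and from P28 to adult it was 1.57-fold lower (-0.65 ± 0.11, adjusted p = 0.0062), both under the 3-fold threshold. The 4 intestine markers found in the files summed to 12.9 to 16.8 CPM at E18, 124 to 128 CPM at P14, 108 to 110.1 CPM at P28 and 47.0 to 51.6 CPM in adult, of which Fabp2, a fatty acid binding protein, made up 46.5 to 127 CPM after E18. From E18 to P14, 1 of these 4 markers was called higher and 3 lower (all genes tested, 13.8% higher and 15.4% lower). Cdx2, among the lower ones, had 641 and 304 reads at E18 and 0 or 1 in each later sample. The part of intestine RNA in the level of Slc39a4 was not tested.

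Slc30a10, a manganese exporter of the same family as Slc30a1, measured 125 and 133 CPM at E18, 39.4 and 48.5 CPM at P14, 133 and 106 CPM at P28, and 80.4 and 102 CPM in adult. The P14 samples lay below all others. E18 and P28 overlapped after TMM scaling (log2 fold change -0.11, 95% interval -0.46 to 0.24, adjusted p = 0.53), and adult lay below P28 without passing the test (-0.39 ± 0.16 SE, adjusted p = 0.14). Slc30a10 was 2.92-fold lower at P14 than at E18 (-1.55 ± 0.16, adjusted p = 2.2e-05) and 2.71-fold higher at P28 than at P14 (1.44 ± 0.16, adjusted p = 0.00015). In RPKM, which carries no TMM factor, Slc30a10 measured 31.7 and 32.9 at E18 against 17.8 and 14.4 at P28, with no overlap, so that the overlap of E18 and P28 depends on the scaling. Both changes passed the adjusted p and stopped short of 3-fold. The first was called with DESeq2 (-1.59), without E18 replicate 1 (-1.59) and without P14 replicate 2 (-1.71). The second was called without P14 replicate 2 (1.60) or without P28 replicate 2 (1.59). Gm2061, a noncoding RNA annotated on the opposite strand across Slc30a10, had 289 to 1580 reads per sample against 3614 to 17295 for Slc30a10, and without strand the reads of the pair cannot be told apart.

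In pairs of these members, the ratio in RPKM differed between E18 and later stages. The ratio of Slc39a14 to Slc39a5 was 0.419 and 0.233 in the E18 samples, then 14.5 and 6.92 (P14), 85.2 and 78.5 (P28), and 118 and 108 (adult). Slc39a5 thus exceeded Slc39a14 in both E18 samples and in no later one. Both E18 libraries held pancreas RNA, and its part in the level of Slc39a5 was not tested. Slc39a14 is a manganese importer and Slc30a10 a manganese exporter. The ratio of Slc39a14 to Slc30a10 was 0.659 and 0.42 in the E18 samples, and 9.91 and 6.53 in those of P14. It was 2.25 and 2.27 at P28, and 3.99 and 3.44 in adult. The P14 samples had the highest ratios, where Slc30a10 was at its lowest. These ratios are descriptions within a library and carry no test. Other transporters do not enter them. Slc39a8, of the same family as Slc39a14, averaged 34.3 RPKM at E18 and 7.72 in adult, against 17.3 and 46.0 for Slc39a14.

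**Figure D3:**
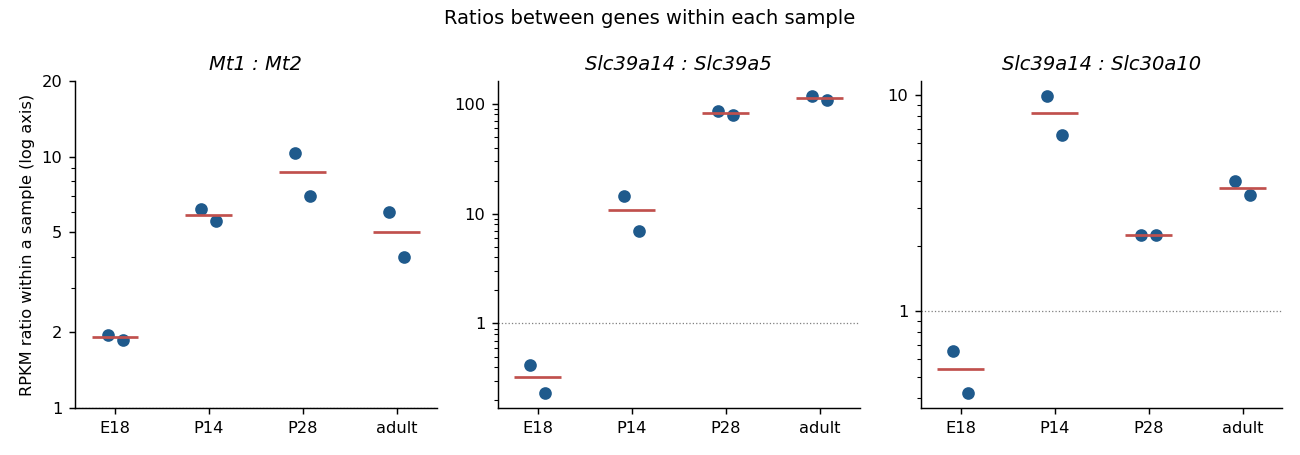
Ratios of RPKM within each sample on a log axis against stage, for Mt1 to Mt2, Slc39a14 to Slc39a5 and Slc39a14 to Slc30a10, with 1 point per sample, a line at the mean of 2 and a dotted line at equal RPKM. The E18 samples have the lowest ratio in all 3 panels, and the Slc39a14 to Slc30a10 ratio is highest at P14.

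Among the 24 transporters of the Slc30 and Slc39 families, Slc39a5 was second by mean RPKM at E18 (54.6 ± 6.7, SD, n = 2), behind Slc39a7, a zinc transporter of the secretory pathway (66.4 ± 0.80). The part of pancreas RNA in the E18 level of Slc39a5 was not tested. Slc39a5 was 15th at P14 (5.03 ± 1.80) and 20th at P28 (0.443 ± 0.038) and in adult (0.409 ± 0.059). Slc39a14 went from 7th at E18 (17.3 ± 5.0) to 2nd at P14 (49.1 ± 7.7) and kept that place at P28 and in adult. Slc39a4 went from 8th (15.6 ± 2.4) to 3rd at P14 and P28 and 4th in adult (22.8 ± 1.2). Slc30a10 was 5th at E18 (32.3 ± 0.86), 13th at P14 (6.09 ± 0.84), 5th at P28 (16.1 ± 2.4) and 8th in adult (12.5 ± 2.3). Slc30a1 held places 8 to 10, with 8.42 to 11.6 RPKM. Slc39a7 was first at all 4 stages.

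Of 20 other zinc transporters, 19 could be tested. From E18 to adult 2 were called higher and 1 lower (all genes tested, 16.8% higher and 23.8% lower), with a median log2 fold change of 0.30 against -0.11 for all genes. The 2 higher ones were Slc39a2, with 0.251 CPM at E18 and 2.15 CPM in adult, and Slc30a3, with 0.788 and 2.40 CPM. The lower one was Slc39a12, with 0.115 and 0.0312 CPM. From E18 to P14 1 was called higher (Slc30a3, to 10.7 CPM) and 1 lower (Slc30a2, from 0.184 to 0.0558 CPM). Of all genes tested, 13.8% were called higher and 15.4% lower in this interval. From P14 to P28 and from P28 to adult 0 were called by edgeR, DESeq2 or limma, with 7 and 4 at an unadjusted p below 0.05 in edgeR. These called transporters reached at most 4.32 RPKM at any stage (Slc30a3 at P14).

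**Figure D4:**
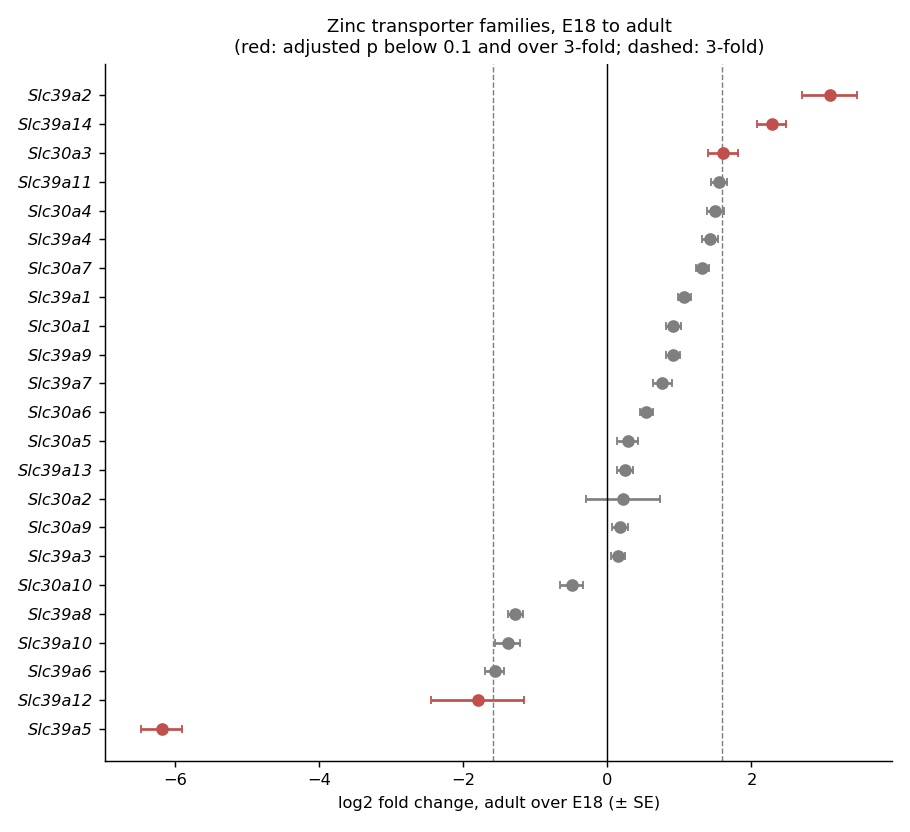
Log2 fold change from E18 to adult (edgeR estimate, adult over E18, bars of 1 SE) for 23 tested genes of the Slc30 and Slc39 families, ordered by value, with called genes in red and dashed lines at a 3-fold change. Slc39a5 lies at -6.18 as the lowest of the 23, and Slc39a14 is second from the top at 2.28.

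Of 9 genes of manganese and iron handling, which include Sod2, 1 was called higher and 1 lower from E18 to adult. Of all genes, 40.5% were called in either direction. The median log2 fold change of the list was 0.30, against -0.11 for all genes. Tfrc, the transferrin receptor, went from 1245 to 20.8 CPM (-5.91 ± 0.41 SE, adjusted p = 9.7e-07), and Sod2, the manganese superoxide dismutase of mitochondria, from 66.9 to 229 CPM (1.77 ± 0.10, adjusted p = 3.2e-07). From E18 to P14, 2 were called higher and 1 lower (all genes tested, 13.8% higher and 15.4% lower). From P14 to P28 1 was called lower (all genes, 5.98%). From P28 to adult 0 were called by edgeR, DESeq2 or limma (all genes, 3% by edgeR), with 5 at an unadjusted p below 0.05 in edgeR.

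The likeness of the courses was described by Pearson's r of log2 CPM over the 8 samples, which share 4 stages and 1 scaling, so that genes with similar stage means score high. Mt1 had an r of 0.990 with Mt2 and 0.992 with Slc39a5, and Slc39a4 had 0.903 with Slc39a14. Slc30a10 had no r above 0.17 with another of the 8 genes. Of all genes tested, those nearest to Mt1 were Snord22, H2afx and Snord7 (0.995 to 0.996), and those nearest to Mt2 were Ctps, Zfp689 and Exosc2 (0.994 to 0.996). Those nearest to Slc39a5 were Slc41a3, Klf14 and 6430706D22Rik (0.997 to 0.998). Slc41a3 measured 49.9, 10.8, 1.59 and 1.20 CPM at the 4 stages, on average over the duplicates. Klf14 lay near the floor, with means of 0.569 CPM at E18, 0.0555 CPM at P14 and 0 CPM at P28 and in adult. Those nearest to Slc39a14 were Adipoq, Nrn1 and Wwp1 (0.993 to 0.994). Adipoq also lay near the floor, with a mean of 0.0529 CPM at E18 and at most 0.247 CPM later. Those nearest to Slc39a4 were Cxadr, Cept1 and 4430402I18Rik (0.995 to 0.999). Mtf1 was closest to Secisbp2, C030048B08Rik and Mmgt1 (0.989 to 0.992), and Slc30a1 to Lag3, Klhl22 and Lsm6 (0.971 to 0.985). Slc30a10 was closest to the overlapping Gm2061 (0.982), then to Papd4 and Vps33b (0.978 and 0.973).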

How the data were processed

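Livers were sequenced by the authors as poly(A) RNA with 100 bp read pairs, and reads were aligned to the mouse genome and transcriptome. The submitters' processing notes name the build mm9, and the aligner and counter are not given in the sources used here. For RNA isolation, Trizol is named in the labels and an RNeasy kit in the methods. The deposited counts were whole reads per gene symbol, not normalized, and the RPKM values were computed by the authors from them. Genes were filtered with filterByExpr and scaled by TMM in edgeR (version 4.0.16). All 8 samples entered 1 quasi-likelihood fit (glmQLFit) with a term for each stage, and pairs of stages were compared with glmQLFTest. Standard errors were derived from the fold change and its F statistic. The fit was tested on simulated data. A p-value rests on 2 samples per stage, and for a single value of 2 against 2 an exact two-sided permutation test cannot go below 0.33. The thresholds (false discovery rate below 0.1, over 3-fold) are those of the study.

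All 8 members are named, with up to 4 called genes of each list by size of the change from E18 to adult and the 3 genes most alike to each member. The lists were other zinc transporters, other metallothioneins, manganese and iron handling, copper handling, and zinc-dependent enzymes and related proteins. Further lists were glucocorticoid-responsive genes, acute phase and IL-6 genes and oxidative stress (Nrf2) genes. The members, lists and markers were chosen with earlier results of these data known. Replicate numbers did not pair the samples. Same-numbered samples of different stages had correlations of their deviations from the stage means between -0.0926 and 0.0894. Alternatives were other filters, scalings and thresholds, DESeq2 (version 1.42.0), limma (version 3.58.1) on log2(RPKM + 0.1) and log2(RPKM + 1), the 2 stages alone, a replicate block and each sample left out. Overlapping genes and shared transcript sequence came from GENCODE M21 and promoters from RefSeq, both on GRCm38. Proteins were not analysed here.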

Additional observations from a re-analysis of the deposited data

How the results depend on the processing

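The calls of Mt1, Mt2 and Slc39a5 from E18 to P14, from P14 to P28 and from E18 to adult held under all 20 alternatives of the fit, with log2 fold changes from E18 to adult of -7.41 to -6.32, -8.75 to -7.63 and -7.03 to -5.30. The 5 calls from E18 to P14 became 6 with median-ratio scaling and DESeq2 and 4 with library size alone and limma, and the 4 calls from E18 to adult became 3 with library size alone and limma. Without a fold threshold, 6 passed from P14 to P28, 5 from P28 to adult and 8 from E18 to adult, and at 2-fold 1 passed from P28 to adult. With each sample left out in turn, 4 to 6 were called from E18 to P14, 3 to 4 from P14 to P28, 0 from P28 to adult and 4 from E18 to adult. The replicate block called 5, 3, 0 and 4, and it changed no call among the 8 genes. For Slc39a4 the call from E18 to P14 was also lost with at least 10 reads in every sample (1.56) and with limma (0.81 and 0.77). The Slc39a14 calls from E18 were lost with limma too (1.52 and 1.47 to P14, 1.43 and 1.38 to adult). Slc30a10 from E18 to P14 was also called with at least 10 reads (-1.65), median-ratio scaling (-1.59), library size alone (-2.42) and limma (-2.39 and -2.24). Directions that turned were all of changes under 3-fold. For Mtf1 from E18 to P14 the value was -0.010 without a filter, -0.10 with at least 10 reads, -0.037 with median-ratio scaling and with DESeq2, -0.86 with library size alone, -0.84 and -0.73 with limma and -0.082 to 0.085 with each sample left out (below 0 without E18 replicate 2 or P14 replicate 1). For Mtf1 from E18 to adult it was -0.30 with library size alone and -0.32 and -0.29 with limma. For Slc30a1 from E18 to P14 it was -0.43 with library size alone and -0.42 and -0.38 with limma. For Slc30a1 from P14 to P28 it was -0.00204 and -0.00216 with limma and -0.10 to 0.17 with each sample left out (below 0 without P14 replicate 1 or P28 replicate 2). The cause of these changes was not tested. Over all genes, the calls from E18 to P14 were 4989, against 3128 with at least 10 reads, 2815 with limma on log2(RPKM + 1), 7720 at 2-fold and 13236 with no fold threshold. From P14 to P28 they were 1638, against 795, 371, 3319 and 9198 in that order, and 869 with limma on log2(RPKM + 0.1). From P28 to adult they were 513, against 260, 75, 1056 and 3616, and 245 with limma on log2(RPKM + 0.1). From E18 to adult they were 6924, against 4561 with at least 10 reads, 3798 with limma on log2(RPKM + 1) and 14240 with no fold threshold. Depth limits Mt2 and Slc39a5 at P28 and in adult, where they had 58 to 165 reads per sample.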

Other observations

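Other gene groups that share an inducer or a metal with the metallothioneins are given as counts of called genes and medians. Of all genes tested, 16.8% were called higher and 23.8% lower from E18 to adult. By interval, 13.8% were called higher and 15.4% lower from E18 to P14. From P14 to P28 these shares were 3.61% and 5.98%, and from P28 to adult 0.767% and 2.24%. Of 22 zinc-dependent enzymes and related proteins, 13 were called higher and 1 lower from E18 to adult. Their median log2 fold change was 2.44, against -0.11 for all genes tested. Adh4 went from 0.982 to 410.2 CPM, Adh7 from 0.451 to 64.9 CPM and Car3, a carbonic anhydrase, from 68.7 to 8683 CPM, while Car2, the carbonic anhydrase also abundant in red cells, went from 1579 to 6.88 CPM. As over all genes, most calls by interval fell in the first, with 15 higher and 2 lower from E18 to P14. Later, 4 were called higher from P14 to P28 and 2 lower from P28 to adult. Of 12 copper handling genes, 4 were called higher (Cp, Sco2, Ccs and Slc31a1) and 1 lower (Atp7a) from E18 to adult, with a median of 0.87. Cp, the copper protein ceruloplasmin, went from 127 to 1928 CPM, and the copper pump Atp7a from 47.8 to 8.56 CPM. From E18 to P14 3 were called higher and 1 lower, and in the later intervals 0 were called by edgeR, DESeq2 or limma, with 5 and 0 at an unadjusted p below 0.05 in edgeR.

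Of 10 glucocorticoid-responsive genes, 5 were called higher and 0 lower from E18 to adult, with a median log2 fold change of 1.62. Tat, a tyrosine-degrading enzyme, went from 0.481 to 2624 CPM, Hsd11b1 from 5.58 to 1186 CPM and Klf9 from 2.38 to 88.9 CPM. From E18 to P14 6 were called higher, and Per1, a clock gene, was called lower from P14 to P28 and higher from P28 to adult. Of 13 acute phase and IL-6 genes, 9 were called higher and 1 lower (Lcn2) from E18 to adult, with a median of 3.63. Orm1 went from 0.216 to 576 CPM, Saa1 from 0.0272 to 64.6 CPM and Saa2 from 0.0231 to 8.0 CPM, and Hp, haptoglobin, from 53.3 to 2553 CPM. From E18 to P14 8 were called higher, from P14 to P28 5 higher and 1 lower, and from P28 to adult 0 by edgeR, DESeq2 or limma, with 4 at an unadjusted p below 0.05 in edgeR. Of 8 oxidative stress (Nrf2) genes, 7 could be tested. Gclc was called higher (74.1 to 296 CPM) and Hmox1 lower (232 to 23.9 CPM) from E18 to adult, with a median of 0.32 for the list. The same counts, 1 higher and 1 lower, held from E18 to P14, and 0 were called in the later intervals by edgeR, DESeq2 or limma, with 6 and 4 at an unadjusted p below 0.05 in edgeR.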
